A study of Mus musculus with 8 samples.

Results

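Transcription factors that set up and run the osteoblast, the cell that builds bone, were examined in mouse cortical bone, the compact wall of a bone. They are Runx2, Sp7, Dlx3, Dlx5, Dlx6, Msx2, Creb3l1 and Twist1, taken by gene name from a table of 55401 genes, and all 8 names matched 1 row each. The study compared 4 control libraries, from mice with floxed Ripk4 alleles (Ripk4fl/fl), with 4 KO libraries, from UbcCre/ERT2 Ripk4fl/fl mice, all on the C57BL/6J background. Ripk4 encodes a receptor-interacting kinase, and the allele is floxed in the controls too. In the KO mice a ubiquitin C promoter drives Cre fused to a modified estrogen receptor, so that recombination is not limited to bone and needs the receptor's drug. A label of 4 weeks is unexplained and could be an age or an interval, the sources used here give no drug treatment, and nothing says whether the libraries came from separate animals, so p-values measure the spread between these libraries.

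As background, mesenchymal progenitors become osteoblasts through an ordered set of DNA-binding proteins. RUNX2, a runt-domain factor that binds DNA with its partner CBFB, commits cells to the lineage, and the zinc finger factor SP7 (osterix) acts after it; mice without either form no mineralised bone. The homeodomain proteins DLX3, DLX5, DLX6 and MSX2 act around these steps, the basic helix-loop-helix protein TWIST1 restrains RUNX2, and CREB3L1 (OASIS), an endoplasmic reticulum membrane protein freed by proteolysis, activates type I collagen transcription.

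A short DNA word bound by RUNX proteins, TGTGGT or its reverse complement ACCACA, was looked for on both strands of RefSeq promoter windows (GRCm38.p6, 250 bases before to 50 after each start). Of all 32851 windows 16.8% held it. Windows were found for 3 of the 8 factors, and the word was in 1 of them, that of Runx2, at 3 places, starting 80 bases before the start and at positions 24 and 32 after it. The windows of Twist1 and Msx2 held no match, which says only that these letters are not there. Of 14 target genes of RUNX2 and SP7 described below, 12 had a window, with 16 windows among them. The word was in 1 window each of 4 genes, namely Bglap, Spp1, Mmp13 and Dmp1 (the second of its 2 windows). The 16.8% counts windows and not genes. The Runx2 stretches and those of 3 targets follow, 5′ to 3′ with the word in capitals, because these targets carry the same word at similar distances (132, 128 and 118 bases before the start), while of the 3 only Bglap passed the test between the groups. They are chr17:44814628-44814877 and chr17:44814578-44814607 on the minus strand for Runx2, chr3:88384467-88384716 on the minus strand for Bglap, chr5:104434861-104435110 on the plus strand for Spp1 and chr9:7272264-7272513 on the plus strand for Mmp13. A match is a description and not a shown binding site.
Runx2 before the start: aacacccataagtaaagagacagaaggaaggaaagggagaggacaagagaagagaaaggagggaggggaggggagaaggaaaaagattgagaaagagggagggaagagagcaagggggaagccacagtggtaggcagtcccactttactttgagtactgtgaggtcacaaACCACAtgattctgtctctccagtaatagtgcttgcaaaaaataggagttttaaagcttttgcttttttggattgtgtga
Runx2 after the start: acaACCACAgaACCACAagtgcggtgcaaa
Bglap: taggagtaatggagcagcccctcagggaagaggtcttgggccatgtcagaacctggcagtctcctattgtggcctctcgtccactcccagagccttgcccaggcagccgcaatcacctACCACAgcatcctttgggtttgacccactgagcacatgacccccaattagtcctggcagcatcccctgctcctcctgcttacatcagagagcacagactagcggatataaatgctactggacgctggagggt
Spp1: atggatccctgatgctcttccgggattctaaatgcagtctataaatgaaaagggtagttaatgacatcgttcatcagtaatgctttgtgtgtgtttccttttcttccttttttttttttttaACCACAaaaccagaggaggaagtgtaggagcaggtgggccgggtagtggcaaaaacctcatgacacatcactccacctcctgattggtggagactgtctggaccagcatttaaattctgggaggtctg
Mmp13: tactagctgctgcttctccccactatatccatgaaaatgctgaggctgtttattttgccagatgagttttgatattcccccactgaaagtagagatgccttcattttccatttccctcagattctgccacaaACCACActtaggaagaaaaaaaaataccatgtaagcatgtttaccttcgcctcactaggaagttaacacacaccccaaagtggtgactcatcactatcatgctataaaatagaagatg

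Across the table, libraries held 61092688 to 66774693 estimated counts, and the first principal component had all control libraries on one side and all KO libraries on the other, with KO 4 farthest out at 132 against 7.56 to 41.1 for KO 1 to 3. Ripk4 had at most 12 counts in any library, which is the floor used for detection, so its loss could not be read at this depth and does not check the labels. The tissue label was set against defining markers: 10 of 10 osteoblast and 8 of 8 osteocyte markers were tested, none at the floor, but marrow transcripts were far more abundant. Summed osteoblast markers ran from 3457 to 7780 FPKM (fragments scaled to gene length and library size) in control and from 648 to 1149 in KO, and summed neutrophil markers from 29143 to 41794 and from 54453 to 68114. Of 8 neutrophil markers 5 rose and 0 fell by edgeR, while 0 rose by limma on FPKM. Markers of skeletal muscle were highest in control 3, at 3553 FPKM in sum against 135 to 2020 in the other 7 libraries. Endothelial markers, of which 3 of 8 fell and 0 rose by edgeR, summed to 104 to 130 FPKM in control and 70.8 to 94.7 in KO. Of these markers 6 were lower and 0 higher at an unadjusted p under 0.05 (5657 of all 20152 genes in either direction). DESeq2 also called 6 of them lower and 0 higher, against 2049 and 1916 over all genes. Over all genes tested by edgeR, 5.03% fell and 5.31% rose. Transcripts of the mitochondrial genome made up 6.17%, 9.21%, 16.1% and 11.7% of counts for control 1 to 4 and 5.56% to 6.09% for KO, without overlap. The part of these differences in the results on the factors was not tested. In a bulk sample, fewer osteolineage cells, less RNA per cell and a larger share of marrow RNA cannot be told apart.

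All 8 factors had a lower mean level in KO, but fewer passed the test. All 8 could be tested and 3 fell, Dlx3, Creb3l1 and Twist1, while 0 rose, by the edgeR quasi-likelihood test at an adjusted p under 0.05 over 20152 genes. Over all tested genes 5.03% fell and 5.31% rose, 10.3% together. At an unadjusted p under 0.05, 7 factors were lower and 0 higher, where 5657 of the 20152 genes stood in either direction. DESeq2 called 6 factors lower and 0 higher, and over all genes 2049 lower and 1916 higher. Every KO library lay below every control library for 6 of the 8 factors, against 11.5% of all tested genes, or 20.7% counting either direction. The median log2 fold change was -1.42 over the factors and -0.02 over all tested genes. The count of 3 changed whichever library was left out: it was 0 on leaving out control 2, control 3, control 4 or KO 3, 1 without control 1 or without KO 1, 2 without KO 2 and 5 without KO 4. The log2 fold changes themselves stayed between -2.03 and -1.47 for Dlx3, -1.95 and -1.31 for Creb3l1 and -1.93 and -1.43 for Twist1 on leaving out 1 library. With control 3 and KO 4 both left out, chosen after seeing the data, it was 4.

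**Figure D1:**
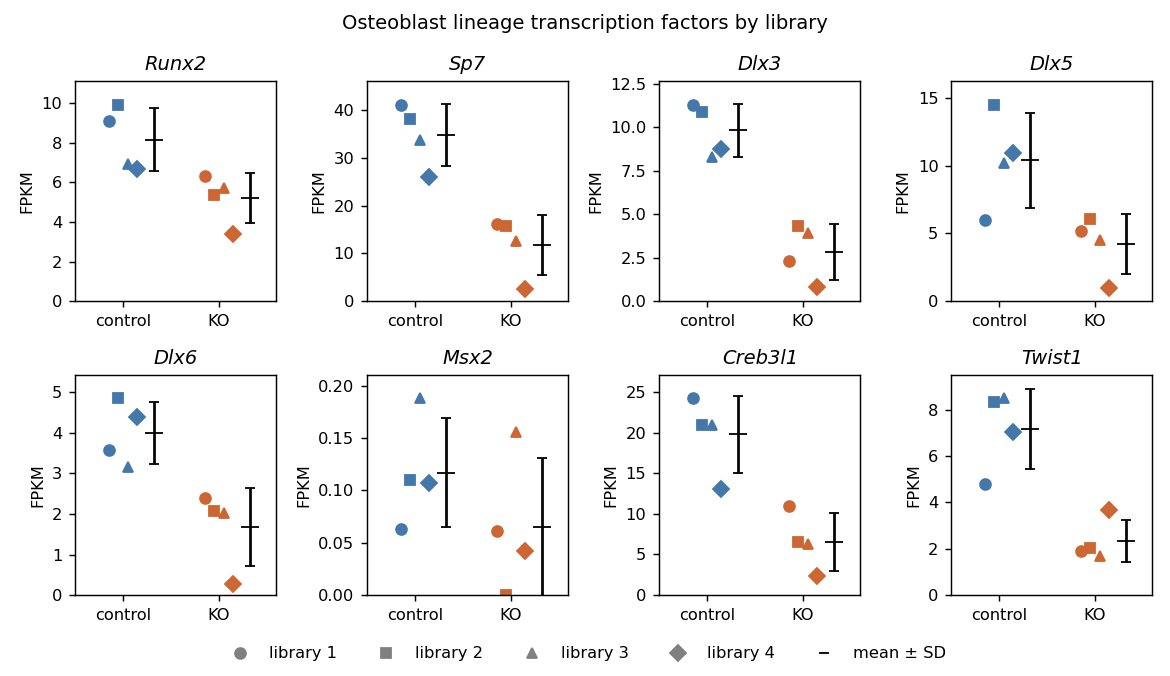
FPKM (vertical axis, from 0, scale differing by panel) of the 8 factors in 4 control (blue) and 4 KO (orange) libraries, with a marker shape per library number and the mean ± SD in black. KO 4 is the lowest KO library for 6 of the 8 factors, and the highest KO library for Twist1 at 3.68 FPKM.

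Runx2 (ENSMUSG00000039153, GRCm38 chromosome 17, 44495987 to 44814797, minus strand), the factor that commits cells to the lineage, was modestly lower and did not pass the test. Its level was 9.07, 9.91, 6.93 and 6.67 FPKM across control 1 to 4 and 6.33, 5.34, 5.72 and 3.41 FPKM in KO 1 to 4. The groups did not overlap, with KO 1 just under control 4, the lowest control library. The means were 8.15 ± 1.59 and 5.2 ± 1.26 FPKM (SD, n = 4 each). This is a log2 fold change of -0.62 ± 0.19 (SE), edgeR adjusted p = 0.0731, with a 95% confidence interval of the fold from 0.482-fold to 0.878-fold. DESeq2, at the same log2 fold change of -0.62, called it with an adjusted p of 0.026. The table sums the gene's 14 listed transcripts, so its distal and proximal promoter isoforms are not separated.

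Several genes lie over Runx2 on the opposite strand, and since the strand setting of the counting is not given, reads of such partners cannot be told apart where they overlap. Supt3, a gene of a histone acetyltransferase complex whose gene body overlaps Runx2, was at 2.71, 3.05, 2.45 and 3 FPKM in control and 2.36, 1.83, 1.44 and 0.861 FPKM in KO 1 to 4 (log2 fold change -0.76 ± 0.26, edgeR adjusted p = 0.0998). The antisense RNA Runx2os2 was low and higher in KO, 0.0967 to 0.32 FPKM in control and 0.397 to 1.45 in KO, without overlap but also without passing (log2 fold change 1.78 ± 0.53, edgeR adjusted p = 0.0696). Runx2os1 overlapped between the groups, and Runx2os3 had 0 counts in all libraries. Against the 2057 to 5937 counts of Runx2, these antisense RNAs had at most 87 counts in a library, but Supt3 had 243 to 883.

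Sp7 (ENSMUSG00000060284, chromosome 15, 102356606 to 102366968, minus strand), needed after Runx2 for osteoblast differentiation, had the highest level of the 8 factors in both groups. Its values were 41.1, 38, 33.8 and 26 FPKM in control 1 to 4 and 16.2, 15.8, 12.5 and 2.63 FPKM in KO 1 to 4. All KO libraries lay well below the controls, and KO 4 lay well below the other KO libraries. The mean went from 34.7 ± 6.52 to 11.8 ± 6.33 FPKM (SD, n = 4 each). On the log2 scale the fold change was -1.55 ± 0.46 at edgeR adjusted p = 0.0687, so the gene did not pass. Without KO 4, where the spread within KO is smaller, the log2 fold change was -1.22 and the edgeR adjusted p 0.0103, and with control 3 and KO 4 both left out they were -1.16 and 0.0267. DESeq2 called the gene with an adjusted p of 0.00397.

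Creb3l1 (ENSMUSG00000027230, chromosome 2, 91982328 to 92024502, minus strand), the membrane-bound activator of type I collagen transcription, fell in KO. It was at 24.2, 20.9, 20.9 and 13.1 FPKM in control 1 to 4 and at 11, 6.56, 6.28 and 2.36 FPKM in KO 1 to 4. The groups stood apart, with KO 1 closest to control 4. The mean fell from 19.8 ± 4.73 to 6.54 ± 3.52 FPKM (SD, n = 4 each). The fitted log2 fold change was -1.58 ± 0.40, edgeR adjusted p = 0.0415. That call was lost without any 1 library other than KO 1 or KO 4, at adjusted p values of 0.0842, 0.0894, 0.105 and 0.0627 without control 1 to 4, 0.0783 without KO 2 and 0.102 without KO 3.

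Dlx3 (ENSMUSG00000001510, chromosome 11, 95120119 to 95125296, plus strand), a homeodomain factor that acts in bone and also in skin and hair, fell by the largest fitted fold change of the 8. The libraries read 11.3, 10.9, 8.32 and 8.74 FPKM in control 1 to 4 and 2.29, 4.34, 3.92 and 0.815 FPKM in KO 1 to 4. No KO library came near the controls. The mean fell from 9.82 ± 1.51 to 2.84 ± 1.61 FPKM (SD, n = 4 each). This is a log2 fold change of -1.77 ± 0.43, edgeR adjusted p = 0.0353. Leaving out any 1 library other than KO 2 or KO 4 ended the call, with adjusted p values of 0.0704, 0.0812, 0.0806 and 0.077 without control 1 to 4, 0.0822 without KO 1 and 0.0643 without KO 3. Because keratinocytes also make Dlx3, 8 of their markers were set beside it: all 8 were tested, 0 fell and 0 rose by edgeR (0 in either direction also at an unadjusted p under 0.05 and by DESeq2), and their summed level was 13.1 to 13.8 FPKM in control, 0.677 in KO 1 and 9.65 to 16.3 in KO 2 to 4. Their part in the fall of Dlx3 was not tested.

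Dlx5 and Dlx6 are neighbours on chromosome 6 that point towards each other with 9237 bases between their ends, and both encode homeodomain factors active in osteoblasts. Dlx5 (ENSMUSG00000029755, 6877805 to 6882085, minus strand) was at 5.97, 14.5, 10.2 and 10.9 FPKM in control 1 to 4 and at 5.21, 6.08, 4.53 and 1.01 FPKM in KO 1 to 4. The groups overlapped, since control 1 lay below KO 2. The means were 10.4 ± 3.49 and 4.21 ± 2.22 FPKM (SD, n = 4 each). On the log2 scale the fold change was -1.29 ± 0.48 at edgeR adjusted p = 0.122, with a 95% confidence interval of the fold from 0.19-fold to 0.873-fold. DESeq2 called it with an adjusted p of 0.0278.

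Dlx6 (ENSMUSG00000029754, 6863334 to 6868568, plus strand) was at 3.58, 4.85, 3.15 and 4.38 FPKM in control 1 to 4 and at 2.39, 2.07, 2.02 and 0.263 FPKM in KO 1 to 4. Here the groups did not overlap, and KO 4 was far below the other 3 KO libraries. The means were 3.99 ± 0.766 and 1.69 ± 0.962 FPKM (SD, n = 4 each). The fitted log2 fold change was -1.22 ± 0.52, edgeR adjusted p = 0.17. Without KO 4 it passed, at a log2 fold change of -0.87 and an edgeR adjusted p of 0.0207, and likewise without both control 3 and KO 4, at -0.91 and 0.0362.

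Dlx6os1, an RNA transcribed across Dlx6 on the opposite strand, fell. It read 0.856, 0.928, 0.404 and 0.947 FPKM across control 1 to 4, then 0.281, 0.284, 0.137 and 0.063 FPKM across KO 1 to 4. This is a log2 fold change of -2.0 ± 0.47, edgeR adjusted p = 0.0327. With 23 to 352 counts per library against 44 to 782 for Dlx6, overlapping reads assigned to the wrong strand could shift either gene's value. Dlx6os2, also on that strand, had at most 23 counts in a library and did not pass.

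Twist1 (ENSMUSG00000035799, chromosome 12, 33957671 to 33959829, plus strand), which holds back RUNX2 activity in progenitors, fell with the smallest p of the 8. Its level was 4.78, 8.32, 8.48 and 7.05 FPKM in control 1 to 4 and 1.91, 2.05, 1.68 and 3.68 FPKM in KO 1 to 4. The groups did not overlap, and KO 4 was the highest KO library, unlike for the other factors above 1 FPKM. The mean fell from 7.16 ± 1.71 to 2.33 ± 0.913 FPKM (SD, n = 4 each). On the log2 scale the fold change was -1.59 ± 0.32 at edgeR adjusted p = 0.0219. It missed the threshold without control 2, 3 or 4 or without KO 1 or 3, at adjusted p values of 0.0597, 0.0601, 0.056, 0.0531 and 0.063. Since fibroblasts and periosteal cells also make Twist1, their markers were set beside it. Of these, 5 of 8 fell and 0 rose, against 5.03% and 5.31% of all tested genes. The markers summed to 213 to 436 FPKM in control and 62.3 to 98.8 FPKM in KO. Their part in the fall of Twist1 was not tested.

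Msx2 (ENSMUSG00000021469, chromosome 13, 53466884 to 53473074, minus strand), a homeodomain factor that works against and beside the DLX proteins, was barely detected. It had 15, 26, 45 and 26 counts in control 1 to 4 and 15, 0, 38 and 10 counts in KO 1 to 4, and 1 fragment is worth about 4 counts in this table. The groups overlapped widely. The level was 0.117 ± 0.0519 FPKM in control and 0.0649 ± 0.0661 in KO (SD, n = 4 each), and the 95% confidence interval of the fold change, from 0.118-fold to 2.57-fold (edgeR adjusted p = 0.611), leaves a large change in either direction undetectable at this depth.

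Ranked by mean FPKM, the control order was Sp7, Creb3l1, Dlx5, Dlx3, Runx2, Twist1, Dlx6 and Msx2. Only the first step, Sp7 over Creb3l1, and the last, Dlx6 over Msx2, were free of overlap between the library ranges. In KO the order was Sp7, Creb3l1, Runx2, Dlx5, Dlx3, Twist1, Dlx6 and Msx2, and only the step from Dlx6 to Msx2 was free of overlap. Within KO 4 the order differed, with Twist1 on top, then Runx2, then Sp7.

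KO 4 was the KO library in which most of these factors were lowest. Relative to the mean of KO 1 to 3, KO 4 held 12.2% of the Dlx6 level, 17.7% of Sp7, 19.2% of Dlx5, 23.2% of Dlx3, 29.8% of Creb3l1 and 58.9% of Runx2, but 196% of Twist1. Against the control mean, Sp7 stood at 42.8% in KO 1 to 3 and 7.58% in KO 4, and Twist1 at 26.3% in KO 1 to 3 and 51.5% in KO 4. KO 4 is thus low for 6 factors and is the library nearest to control for Twist1. It is a single library, so no test applies. The osteoblast marker sum of 648 FPKM in KO 4 was also the lowest of the KO libraries, whose other sums were 743 to 1149 FPKM. Single markers of that list differed. Alpl was lowest in KO 4, at 7.61 FPKM against 24.6 to 43.5 in KO 1 to 3. Ibsp was highest there, at 201 FPKM against 104 to 187.

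**Figure D2:**
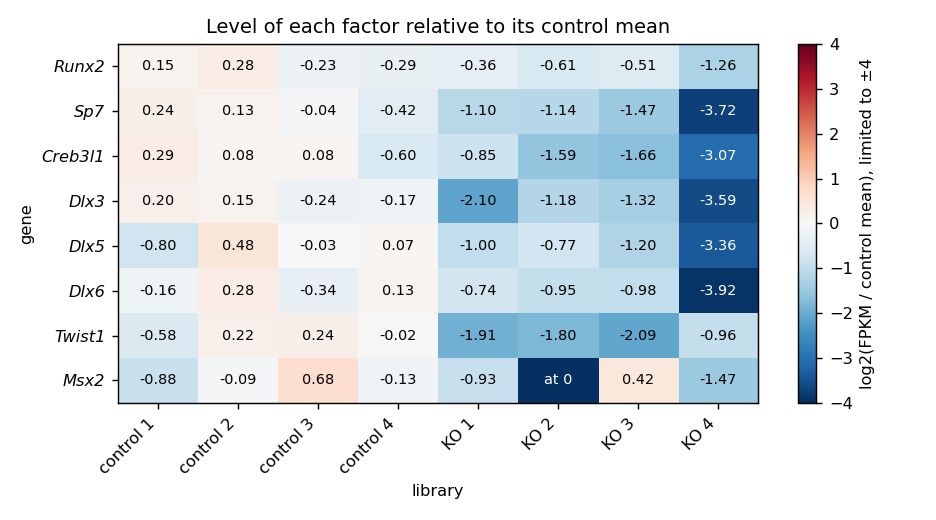
Log2 ratio of each library's FPKM to the factor's control mean (colour, limited to ±4), genes in rows and libraries in columns. Sp7 reads -1.10, -1.14, -1.47 and -3.72 in KO 1 to 4, whereas Twist1 reads -1.91, -1.80, -2.09 and -0.96. Msx2 in KO 2 is listed at 0.

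Profiles of other genes were compared with each factor by the root mean square difference of centred log2 CPM (library-scaled counts) over the 8 libraries, among 11960 genes with a mean of at least 1 FPKM. The median gene differed from Sp7 by 1.22, and the closest were Plxnb1, a semaphorin receptor (0.14), Pth1r, the parathyroid hormone receptor of osteoblasts (0.19), and Rap1gap (0.20). Pth1r averaged 36.2 ± 3.78 FPKM in control against 14.9 ± 8.69 FPKM in KO (SD, n = 4 each), and did not pass (log2 fold change -1.27, edgeR adjusted p = 0.133). Closest to Creb3l1 were Gamt, Copz2, a subunit of the COPI vesicle coat, and Gpx7, an endoplasmic reticulum peroxidase, each at 0.21. Copz2 fell from 14.1 ± 2.08 to 4.6 ± 1.97 FPKM (log2 fold change -1.61, edgeR adjusted p = 0.0219) and Gpx7 from 11.2 ± 1.62 to 3.09 ± 1.5 FPKM (log2 fold change -1.85, edgeR adjusted p = 0.0156). These likenesses describe 8 libraries in 2 groups and say nothing of shared control. Each profile includes the difference between the groups. Falls of the closest genes, here and below, therefore follow from how they were picked and are no separate support.

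Twist1 had other neighbours. Loxl2, a collagen cross-linking oxidase (0.23), Gja1, the gap junction protein connexin 43 (0.28), and Shc2 (0.30) were closest, and Gja1 fell from 24.1 ± 2.38 to 8.31 ± 0.88 FPKM (log2 fold change -1.51, edgeR adjusted p = 0.0025). Dlx3 was closest to Ddit4l (0.13), Ccn4, a Wnt-induced matricellular protein (0.20), and Ccdc194 (0.21). Dlx6 was nearest to Podnl1 (0.12), Cmbl (0.19) and Tnc, the matrix protein tenascin C (0.23), and Dlx5 to Pgf (0.24), Arvcf (0.27) and Ccdc3 (0.28). For Runx2, Alkbh2, Crocc and Ptk7 were each at 0.08, in a comparison where the median gene stood only 0.50 away. Msx2 had no gene nearer than Ccdc50 at 0.64. Among the factors themselves the closest pair was Sp7 and Creb3l1 (0.31), followed by Sp7 and Dlx6 (0.33) and Dlx5 and Dlx6 (0.34), while Sp7 and Twist1 were 1.11 apart.

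Whether genes changed by unequal amounts was tested on their log2 ratio within each library, from FPKM + 0.5, for 8 pairs by a two-sided exact permutation test over 70 assignments, which cannot go below 0.0286. The ratio of Runx2 to Col1a1, the main collagen chain of bone, ran -7.69, -7.65, -8.71 and -7.16 across control 1 to 4, then -5.78, -4.62, -4.57 and -5.0 across KO 1 to 4. It was higher in 4 of 4 KO libraries than in any control library, by 2.81 on the log2 scale (exact permutation p = 0.0286, adjusted over the pairs 0.0762). Creb3l1 to Col1a1 also stood apart, at -6.59 ± 0.43 in control and -4.82 ± 0.52 in KO (SD, n = 4 each; exact permutation p = 0.0286, adjusted 0.0762). Also without overlap was Sp7 to Runx2, at 2.12, 1.89, 2.21 and 1.89 in control and 1.29, 1.48, 1.06 and -0.32 in KO, lower on average in KO (difference -1.15; exact permutation p = 0.0286, adjusted 0.0762). None of the 8 pairs passed after adjustment. As p cannot go below 0.0286, the pairs without overlap stayed at 0.0762 whatever the size of their difference.

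The remaining ratios overlapped between the groups. Sp7 to Col1a1 differed by 1.67 (exact permutation p = 0.0571, adjusted 0.114), with KO 4 at -5.32 inside the control range. Dlx5 to Dlx6 was 1.23 ± 0.40 in control and 1.08 ± 0.18 in KO (SD, n = 4 each; exact permutation p = 0.514, adjusted 0.514), and this difference of -0.15 turned to 0.03 with a pseudocount of 0.1. Dlx5 to Runx2 and Twist1 to Runx2 differed by -0.73 and -0.84 (exact permutation p = 0.114 and adjusted 0.152 for each). Msx2 to Runx2 is not interpretable at so few counts: its difference of 0.48 became -0.68 with log2 CPM.

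**Figure D3:**
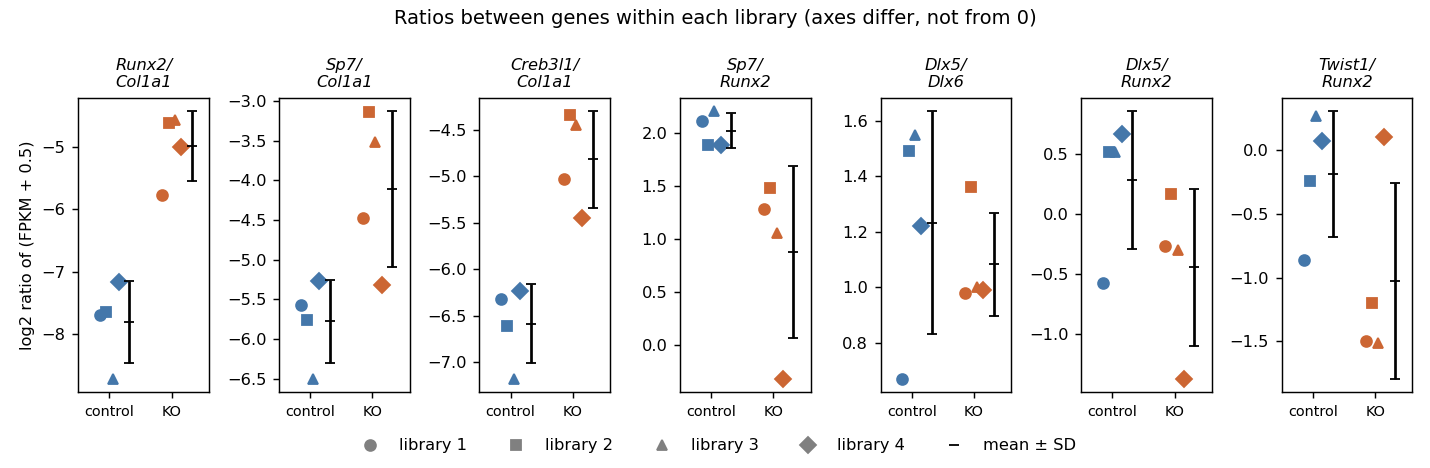
Log2 ratio of (FPKM + 0.5) between genes, 1 panel per pair (Msx2/Runx2 is not drawn), for control (blue) and KO (orange) libraries, with mean ± SD in black; vertical axes differ and do not start at 0. Runx2/Col1a1, Creb3l1/Col1a1 and Sp7/Runx2 show no overlap between the groups, while KO 4 sits at 0.10 for Twist1/Runx2, within the control range.

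Genes that textbooks give as targets of RUNX2 and SP7 were lower in KO for the most part. Of 14 listed, all tested, 8 fell and 0 rose by edgeR, against 5.03% and 5.31% of all tested genes. At an unadjusted p under 0.05 (5657 of all 20152 genes in either direction), 9 were lower and 0 higher. DESeq2 called 9 lower and 0 higher, against 2049 and 1916 over all genes. The median log2 fold change was -1.32 against -0.02 over all tested genes. Bglap, which encodes osteocalcin, read 310, 550, 1009 and 381 FPKM in control 1 to 4 and 34.5, 31.5, 20.9 and 19.7 FPKM in KO 1 to 4. Bglap2 was close to it in each library, and these near-identical neighbours can share reads. Ihh, a hedgehog ligand of growth plate chondrocytes, fell from 1.01 ± 0.474 to 0.374 ± 0.114 FPKM, and Phex, a phosphate-regulating peptidase of osteocytes, from 10.9 ± 0.863 to 2.68 ± 1.64 FPKM (SD, n = 4 each; edgeR adjusted p = 0.0416 and 0.0404).

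Ibsp, the bone sialoprotein gene, was among the targets that fell, at 312, 341, 367 and 308 FPKM in control 1 to 4 and 187, 140, 104 and 201 FPKM in KO 1 to 4 (log2 fold change -1.05 ± 0.22, edgeR adjusted p = 0.0241). The others that passed were Col1a1, Col1a2 and Dmp1, with log2 fold changes of -3.38, -3.18 and -1.82. Alpl, the mineralising phosphatase, did not overlap between the groups yet missed the threshold (66.4 ± 13.4 and 27.7 ± 15.5 FPKM, log2 fold change -1.24 ± 0.43, edgeR adjusted p = 0.101). Leaving out control 2, control 3, control 4 or KO 2 lowered these 8 calls to 5.

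Spp1 and Mmp13, whose promoter stretches are printed above beside that of Bglap, did not follow it. Spp1, the osteopontin gene, read 557, 1202, 811 and 964 FPKM across control 1 to 4 and 436, 565, 561 and 1880 FPKM in KO 1 to 4. Mmp13, a collagenase, read 96.2, 249, 172 and 277 FPKM in control and 105, 147, 115 and 506 FPKM in KO. In each case KO 4 was the highest of all 8 libraries, and the groups overlapped (log2 fold changes 0.02 ± 0.49 and 0.19 ± 0.57, edgeR adjusted p = 0.987 and 0.858). Tnfsf11, the osteoclast-promoting RANKL gene, chosen after its values were seen, had the same library on top, with 38.4 FPKM in KO 4 against 1.71 to 2.2 in KO 1 to 3 and 2.23 to 4.39 in control. Vegfa, an angiogenic factor, was level between the means at 14 ± 1.2 and 13.9 ± 5.91 FPKM (edgeR adjusted p = 0.948).

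**Figure D4:**
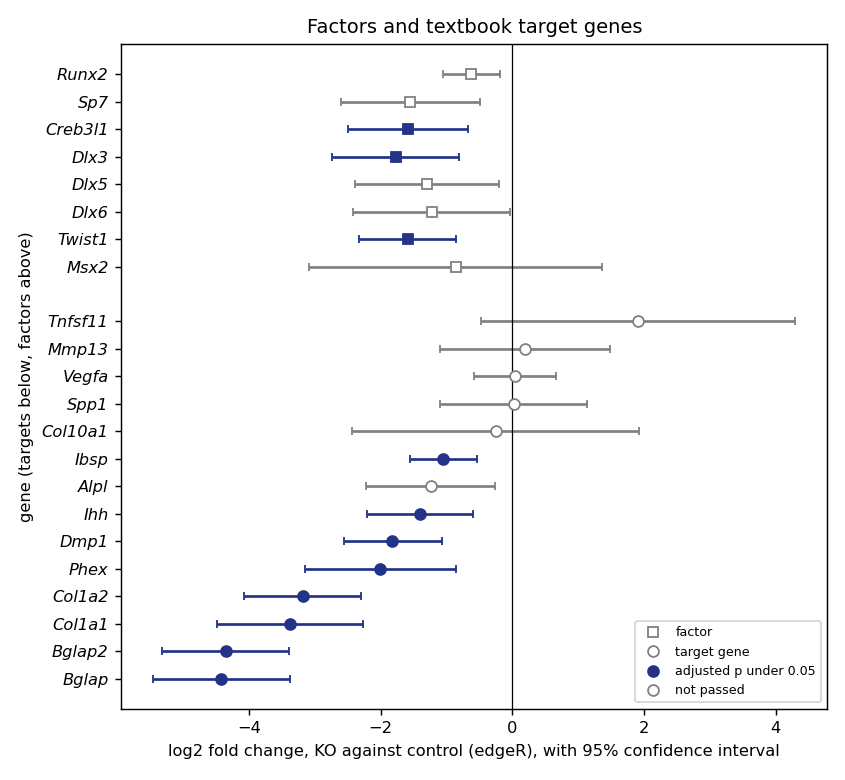
Log2 fold change of KO against control with 95% confidence interval (horizontal axis) for the 8 factors (squares, upper block) and 14 target genes (circles, lower block); filled symbols passed an edgeR adjusted p under 0.05. The filled factors are Creb3l1, Dlx3 and Twist1, and the targets run from -4.42 for Bglap to 1.91 for Tnfsf11, which did not pass.

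Most partners and co-regulators of RUNX2 did not pass the test. Of 18 listed, all tested, 3 fell and 1 rose by edgeR, against 5.03% and 5.31% of all tested genes. At an unadjusted p under 0.05, 5 were lower and 2 higher, and the median log2 fold change was -0.12. Cbfb, the DNA-binding partner of RUNX2, averaged 26.6 ± 2.5 FPKM in control against 28.3 ± 3.11 in KO (SD, n = 4 each; log2 fold change 0.12 ± 0.12, edgeR adjusted p = 0.563). Wwtr1, which encodes the TAZ co-activator, fell from 4.64, 4.61, 7.21 and 7.24 to 2.05, 2.4, 2.27 and 2.39 FPKM in libraries 1 to 4 of each group (log2 fold change -1.36 ± 0.21, edgeR adjusted p = 0.0101). Hey1, a Notch-induced repressor, fell from 2.91 ± 0.41 to 1.26 ± 0.327 FPKM (SD, n = 4 each; edgeR adjusted p = 0.0169). Hdac4, a histone deacetylase that represses RUNX2, rose from 2.2, 2.38, 1.59 and 1.72 to 2.97, 3.01, 3.42 and 4.1 FPKM (log2 fold change 0.82 ± 0.16, edgeR adjusted p = 0.0196). Hdac5, Hdac7 and Smurf2 did not pass, at log2 fold changes of -0.25, -0.22 and 0.02. The 3 falls were 1 without control 2 or without control 3, and the rise was lost without control 3, without control 4 or without KO 3.

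Other transcription factors of the osteolineage, 22 tested of 27 listed, showed 0 falls and 0 rises by edgeR, against 5.03% and 5.31% of all tested genes. Their median log2 fold change was -0.35. At an unadjusted p under 0.05 (5657 of all 20152 genes in either direction), 8 were lower and 0 higher. DESeq2, which called 2049 lower and 1916 higher over all genes, called 6 of the list lower and 0 higher. The 6 were Msx1, Alx4, Prrx1, Prrx2, Foxc1 and Sox4. The count of falls by edgeR was 4 without KO 4, 2 without KO 2 and 1 without control 1 or without KO 1. The 4 most abundant by mean FPKM over all 8 libraries, Atf4, Junb, Jund and Cebpb, had fitted log2 fold changes of 0.14, 0.83, 0.33 and 1.15 and did not pass (edgeR adjusted p = 0.791, 0.319, 0.523 and 0.25). Cebpb and Junb were highest in KO 4, at 106 and 242 FPKM against 14.7 to 32.6 and 40.4 to 122 in KO 1 to 3. By control mean alone Vdr, the vitamin D receptor gene, at 22.8 FPKM, stood above Cebpb at 22.1 FPKM, and Vdr did not pass either (log2 fold change -0.38, edgeR adjusted p = 0.651). Vdr read 15.6, 25.5, 26.8 and 23.3 FPKM in control 1 to 4 and 10.9, 11.2, 8.56 and 37.2 FPKM in KO 1 to 4. It was among the edgeR falls without KO 4, and also without both control 3 and KO 4. Among the relatives of the homeodomain factors above, Msx1 read 1.43 ± 0.492 FPKM in control against 0.675 ± 0.0921 in KO (log2 fold change -1.07 ± 0.30, edgeR adjusted p = 0.0554), and Dlx1 and Dlx2 had at most 12 counts in every library.

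Factors of the alternative chondrocyte and adipocyte fates had 2 of 15 tested members falling and 0 rising by edgeR, against 5.03% and 5.31% of all tested genes. At an unadjusted p under 0.05 (5657 of all 20152 genes in either direction), 7 were lower and 0 higher. DESeq2 called 5 lower and 0 higher, against 2049 and 1916 over all genes. The median log2 fold change was -0.70. Sox9, the master factor of cartilage, fell from 0.511 ± 0.223 to 0.124 ± 0.0605 FPKM, and Shox2, a limb homeodomain factor, from 8.08, 6.94, 5.9 and 5.68 to 3.2, 2.81, 2.72 and 1.76 FPKM (edgeR adjusted p = 0.0383 and 0.00846). The adipocyte regulators Pparg and Cebpa did not pass (log2 fold changes -0.48 and 0.17, edgeR adjusted p = 0.394 and 0.462), nor did Klf15 (0.24) and Zfp423 (-0.83). The count of 2 was 1 without any 1 library other than KO 2 or KO 4. Chondrocyte markers, of which 5 of 8 could be tested and 2 fell, summed to 73 to 164 FPKM in control and 7.78 to 34.2 in KO, and their part in the fall of Sox9 was not tested.

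Relatives of Creb3l1 and genes of the secretory route it serves were lower in part. Of 13 listed, all tested, 6 fell and 0 rose by edgeR, against 5.03% and 5.31% of all tested genes. At an unadjusted p under 0.05 (5657 of all 20152 genes in either direction), 7 were lower and 0 higher. DESeq2 called 7 lower and 0 higher, against 2049 and 1916 over all genes. The median log2 fold change was -0.34. Creb3l2, the closest relative, with a role in cartilage secretion, fell from 7.31, 8.08, 7.45 and 9.75 to 5.47, 4.83, 4.19 and 4.33 FPKM (log2 fold change -0.76 ± 0.12, edgeR adjusted p = 0.0107). Mbtps1, the site-1 protease that starts the release of CREB3L1, fell by a small amount, from 7.97 ± 0.979 to 6.16 ± 0.496 FPKM (log2 fold change -0.34 ± 0.09, edgeR adjusted p = 0.0455). Sec23a and Sec24d, coat subunits of vesicles that carry procollagen, fell with log2 fold changes of -0.48 and -0.82, as did Kdelr2 and Kdelr3, which retrieve endoplasmic reticulum proteins, with -0.51 and -1.70.

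The stress factors beside them did not pass. Xbp1, Atf6, Atf6b and Creb3 had log2 fold changes of 0.54, 0.36, 0.01 and 0.00 (edgeR adjusted p = 0.207, 0.228, 0.978 and 0.991). The count of 6 for that list became 2, 1, 1 and 3 on leaving out control 1, 2, 3 or 4, and 5, 4, 1 and 4 on leaving out KO 1, 2, 3 or 4. It was 1, Creb3l2, with control 3 and KO 4 both left out.

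**Figure D5:**
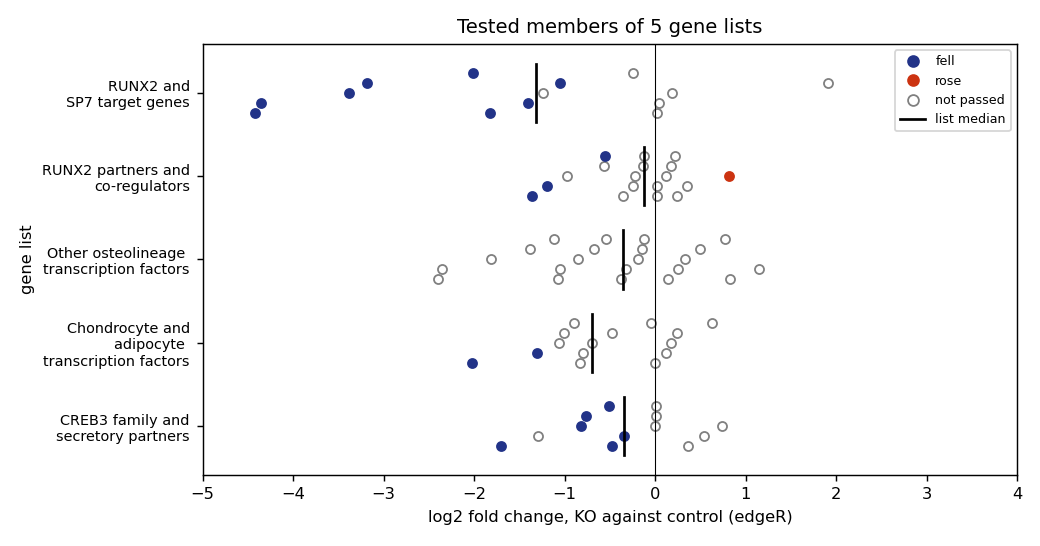
Log2 fold change of KO against control (horizontal axis) of the tested genes of 5 lists (rows), filled blue where a gene fell and red where it rose at an edgeR adjusted p under 0.05, with the list median as a black bar. The medians are -1.32 for target genes, -0.12 for RUNX2 partners, -0.35 for other osteolineage factors, -0.70 for chondrocyte and adipocyte factors and -0.34 for the CREB3 family list.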

How the data were processed

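RNA of cortical bone was sequenced on an Illumina NovaSeq in 4 control and 4 KO libraries (per the labels' protocols). For each gene the authors deposited FPKM and an estimated count in every library. Per the submitters' processing notes, StringTie 1.3.4d, HISAT2 2.0.4, DESeq2 and GRCm38 are named, with roles not stated; neither the counter nor its strand setting is given in those notes. Estimated counts as deposited were already whole. Low values pile up at 4 (7854 values, against 2724 of 3), so 1 fragment was taken as about 4 counts and 12 counts as the floor of 3 fragments, for counting error only. FPKM values at a count of 0 were set to 0. Of 55141 gene identifiers found in GENCODE M21, 94.2% had the same coordinates there. All 8 libraries were mapped by column name.

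Counts were tested with edgeR 4.0.16 in R 4.3.3 (quasi-likelihood, TMM scaling, filterByExpr with a minimum count of 10, two-sided, Benjamini-Hochberg over 20152 genes, threshold 0.05). Ratios were tested exactly over 70 assignments. The genes, lists and tests were chosen with earlier results of these data known. Named genes are the 8 factors, genes overlapping them on the other strand, the 3 closest profiles of each, and, from each list, those that passed and up to 4 abundant ones that did not; others were chosen after their values were seen, and some listed genes are counted but not reported here by name. Alternatives were DESeq2 1.42.0, limma 3.58.1 on FPKM, other scalings, filters and pseudocounts, a replicate block and omitted libraries. On simulated counts for KO against control with 19679 genes, 200 genes were changed. The edgeR test recovered 1.49% of those changed 1.5-fold, 22.4% of those changed 2-fold and 93.9% of those changed 4-fold. In the data 2083 genes were called, so recovery there can differ. Promoter sequences are from RefSeq (GRCm38.p6).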

Additional observations from a re-analysis of the deposited data

Results flagged for a closer look

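Among 168 groups of 4 libraries checked, over the factors and most of the named genes around them, 14 held a library far from the other 3. Chance alone flags about 1 group in 20. None of the 8 factors was among the 14. KO 1 was the highest KO library for Col1a1, at 374 FPKM against 125 to 147, and for Col1a2, at 156 FPKM against 76 to 85.6. KO 4 was the highest for Spp1, at 1880 FPKM against 436 to 565, for Mmp13, at 506 FPKM against 105 to 147, and for Tnfsf11, at 38.4 FPKM against 1.71 to 2.2. KO 4 was the lowest for Hey1, at 0.774 FPKM against 1.38 to 1.46, for Atf6b, at 15.9 FPKM against 24.2 to 25.4, for Mbtps1, at 5.42 FPKM against 6.32 to 6.45, and for Alkbh2, at 1.06 FPKM against 1.8 to 1.92. Control 3 was the lowest control library for Atf6b, at 18.6 FPKM against 23.8 to 24.7, and for Dlx6os1, at 0.404 FPKM against 0.856 to 0.947. Dlx6os2 was highest in control 2, at 0.251 FPKM against 0.11 to 0.132, and Runx2os1 in control 1, at 1.29 FPKM against 0.238 to 0.335. Arhgap26, one of the closest profiles to Msx2, was highest in KO 3, at 2.39 FPKM against 0.493 to 0.768. Vdr was not among the groups checked, and its KO 4 value of 37.2 FPKM stood against 8.56 to 11.2 in KO 1 to 3.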

How the results depend on the processing

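With 4 libraries a group, many calls were lost on leaving out 1 library, and low depth limited Msx2. No alternative turned the direction of any factor's log2 fold change, and with other scalings, counts divided by 4 or limma on FPKM the number of factors that fell remained 3. Leaving out 1 library gave 0 to 5 factors falling, and 323 to 1134 falls and 398 to 1096 rises over all genes. Such omissions gave 5 to 8 falls among target genes, 1 to 3 falls and 0 to 1 rises among RUNX2 partners, 0 to 4 falls among other osteolineage factors, 1 to 2 among chondrocyte and adipocyte factors and 1 to 5 in the CREB3 list. The log2 fold changes then ran from -1.74 to -1.22 for Sp7, -2.03 to -1.47 for Dlx3, -1.43 to -0.87 for Dlx6, -1.95 to -1.31 for Creb3l1 and -1.93 to -1.43 for Twist1.

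DESeq2 gave 2049 falls and 1916 rises over all genes, 6 among the factors (adding Runx2 at -0.62, Sp7 at -1.55 and Dlx5 at -1.29), 6 among other osteolineage factors and 5 among chondrocyte and adipocyte factors. Other osteolineage factors had 2 falls with counts divided by 4, and 3, 2 and 3 with limma at pseudocounts of 0.5, 0.1 and 1. With no filter on low counts Creb3l1 missed the threshold at -1.59 and 1 chondrocyte or adipocyte factor fell. Without control 3 and KO 4, 573 genes fell in the whole table, 3 among other osteolineage factors, 1 among chondrocyte and adipocyte factors and 1 in the CREB3 list, with Sp7 at -1.16 and Dlx6 at -0.91 now passing and Creb3l1 at -1.21 no longer. The Dlx5 to Dlx6 ratio changed sign, to 0.03 with a pseudocount of 0.1 and 0.09 with log2 CPM, and Msx2 to Runx2 to -0.68 with log2 CPM. The cause of these changes was not tested.

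Libraries of the same number did not deviate together (correlations of 0.11, -0.17, 0.09 and -0.06). So few values show no pairing by number but cannot exclude one. With the replicate block, 28 genes fell and 28 rose in the whole table, 0 factors fell (Dlx3 at -1.99, Creb3l1 at -1.72, Twist1 at -1.62), and 1 target gene, 0 RUNX2 partners in either direction, 1 chondrocyte or adipocyte factor and 0 of the CREB3 list fell.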
